A study of Homo sapiens with 6 samples.

Results

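The genes described here are 32 targets and regulators of the tumour suppressor p53, grouped by roles in feedback, cell-cycle arrest, DNA repair, metabolism and the cell membrane. The main cell death targets are kept in a separate list, although some of the 32, such as AEN, PERP and EDA2R, are also known for parts in cell death. The 32 genes were chosen by symbol from 58735 genes in a table of RNA sequencing counts, and all 32 were found there. The cells were T47D, an established human breast cancer line of luminal type, and all results come from this single line. Groups were 3 control libraries, coded CK, and 3 libraries coded CQ, which the design text describes only as an experimental treatment. PM2.5, airborne particles small enough to reach the deep lung, is named in the series title. The extraction protocol, worded alike for both groups, gives 48 h of exposure to it. "Exposed" stands for the CQ libraries in that inferred sense. No dose and no treatment of the controls is stated.

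p53 is a transcription factor that is stabilised by DNA damage and other stress and switches on genes that stop division, repair DNA, tune metabolism or kill the cell. It also switches on its own restraint, since MDM2, one of its targets, marks it for degradation. Many of the genes below are known to answer to other stress pathways as well.

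Library totals ran from 30970218 to 36878525 counts. The 3 libraries of a group are called biological replicates, but separate cultures are not described, so p-values measure only the spread between these samples. All 10 luminal epithelial markers fixed for this work were tested. Their summed level was 20184 to 22045 CPM (counts scaled to a common library size) in controls and 8710 to 10768 CPM in exposed libraries. Most of it was keratin RNA, with mean KRT8 falling from 8154 to 3301 CPM and KRT19 from 7504 to 3473 CPM. Of the 10 markers 7 fell, against 22.1% of all genes tested. The other markers, EPCAM, CDH1 and GATA3, were nearly level (0.02, 0.08 and 0.04 on the log2 scale). The part of these falls in the results below was not tested. Markers of blood, vessel and connective tissue cells were low apart from the collagen gene COL1A1. The 16 genes summed to 71.5 to 81.1 CPM in controls and 80.8 to 84.5 CPM in exposed libraries, and 9 of them had too few counts to test. Most of that sum was COL1A1, which averaged 61.6 CPM in controls and 69.8 CPM in exposed libraries. In bulk RNA, fewer cells with a transcript and less of it per cell cannot be told apart.

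Of the 32 genes, 29 had enough counts for a test and 20 passed it, 9 higher and 11 lower in exposed cells. The stress sensors GADD45A and GADD45G rose 4.24-fold and 2.51-fold, and the kinase gene PLK2 fell by 1.94 on the log2 scale. ZMAT3 and PHLDA3 rose less, TP53I3, BTG1 and TRIAP1 fell less, and the feedback gene MDM2 did not pass. Genes that rose and genes that fell thus stood side by side among these targets.

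A gene passed at an adjusted p under 0.05 by the quasi-likelihood F test of edgeR, adjusted by the Benjamini-Hochberg method over the 17337 genes tested, and every adjusted p below is from edgeR and this adjustment. Over all genes tested 43.9% passed, 21.8% higher and 22.1% lower, against 69.0% of the 29 tested p53 targets, 9 of them higher and 11 lower. All 29 averaged at least 1.36 CPM, and of the 14195 genes averaging 1 CPM or more 49.4% passed. Most changes were small, since 6 of the 9 rises and 9 of the 11 falls were under 1.5-fold. At 2-fold or more stood 3 of the 29 genes (10.3%), 2 higher and 1 lower, near the 9.22% of all genes tested (3.66% higher and 5.56% lower). Control and exposed values did not overlap for 19 of the 29 (65.5%), against 51.9% of all genes tested. The median log2 fold change was -0.20 for the 29 genes and -0.02 for all genes, and the median size regardless of sign was 0.31 and 0.33.

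The 11 genes that passed in each of 12 other settings were MDM4, FBXO22, GADD45A, GADD45G, ZMAT3, PHLDA3 and DDB2, which rose, and TRIAP1, BTG1, PLK2 and TP53I3, which fell. These settings changed the scaling, the filter or the test, added a replicate block, or left out 1 library, and ranges of adjusted p below run over them. The other 9 passes, 2 higher and 7 lower, were lost in at least 1 of them. A test against a 1.5-fold change, given in the last section, is not among the 12 settings. Only GADD45A, GADD45G and PLK2 passed that test. Without 1 library the number that rose was 7 or 8. The number that fell was 7 without control replicate 1 or control replicate 3, 6 without exposed replicate 1, and 8 to 11 without any other library.

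**Figure D1:**
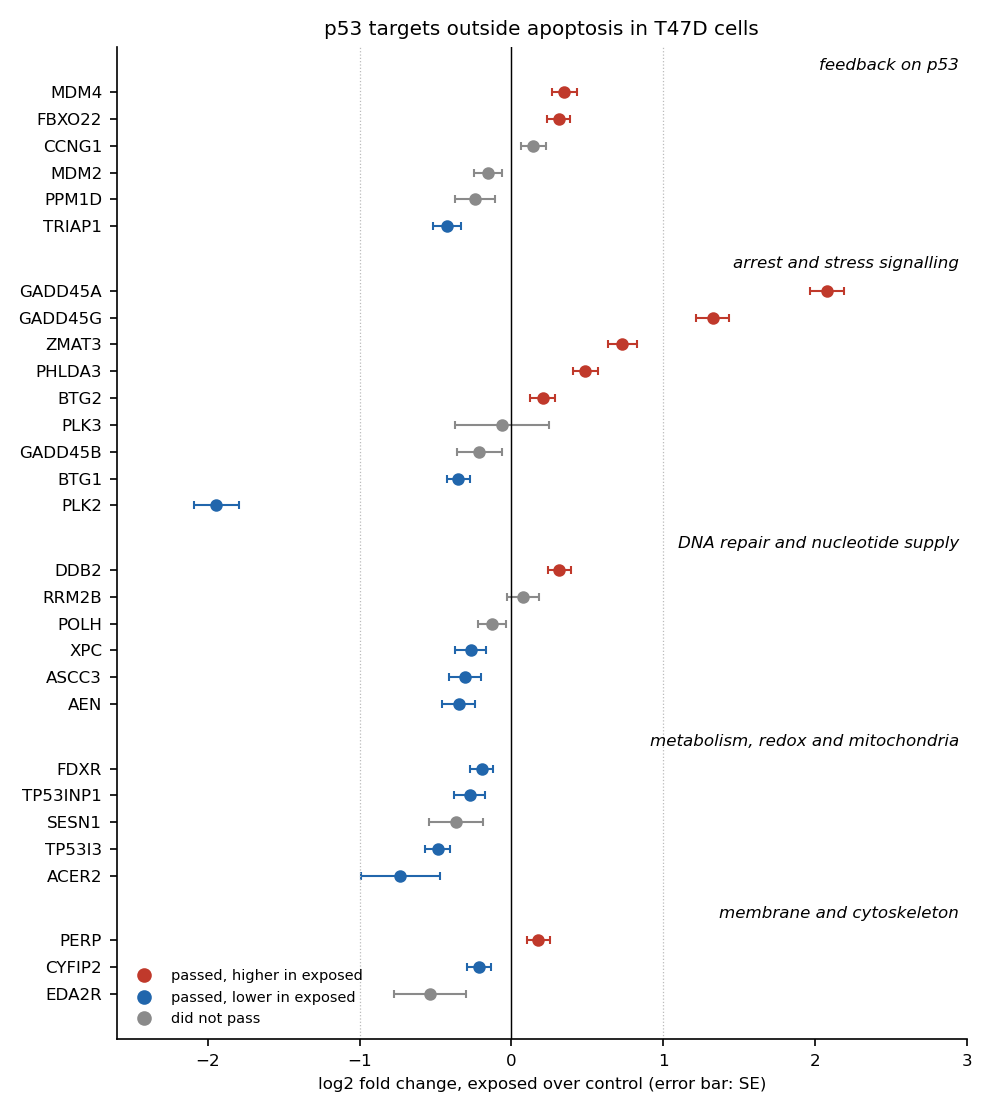
Log2 fold change of the 29 tested genes, exposed over control, with its SE, grouped by role and coloured by the result of the edgeR test; dotted lines mark a change of 2-fold. GADD45A (2.08) and GADD45G (1.33) lie to the right of the other genes and PLK2 (-1.94) to the left, and each role but metabolism holds genes on both sides of 0.

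Sequences are shown for the genes where a stretch near a transcript start resembles all or part of p53's binding site. These genes are shown because they share such a match and yet had different changes. p53 binds as a tetramer to a pair of half-sites of 10 bases, each with a fixed C and G. No sequence window was at hand for FBXO22, GADD45A, PHLDA3, RRM2B, ASCC3 and TP53INP1, so these genes were not searched. RefSeq windows (GRCh38.p14, 250 bases before to 50 after a start) were at hand for 26 of the 32 genes. They were searched for paired half-sites with a gap of up to 1 base and up to 2 mismatches outside the fixed C and G. The half-site consensus is its own reverse complement, so the search covers both strands. A pair was found in 187 of 35116 windows (0.533%) and in 4 of the 37 windows of the 26 genes. These 4 belong to MDM2, DDB2 and AEN. Each is printed within 30 bases, 5′ to 3′ on the strand of its gene, with the half-sites in capitals:
MDM2 (chr12:68808918-68808947, plus strand): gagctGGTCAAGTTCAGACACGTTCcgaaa
DDB2 (chr11:47214975-47215004, plus strand): gtttGAACAAGCCCtGGGCATGTTTggcgg
AEN (chr15:88621301-88621330, plus strand): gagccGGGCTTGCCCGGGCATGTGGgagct

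The DDB2 pair had 0 mismatches and the MDM2 and AEN pairs had 2 each. The MDM2 pair lay 94 bases before one of 4 annotated starts, inside the gene but in no annotated exon. The DDB2 and AEN pairs lay in exons, in annotated untranslated sequence. The AEN pair began 34 bases before its RefSeq start, and the DDB2 pair began at base 6 from one of 2 RefSeq starts. DDB2 rose, AEN fell and MDM2 did not pass. Single half-sites without a mismatch were found in 6.63% of all windows and in 5 of the 37, those of AEN, DDB2 and 3 further genes:
PLK2 (chr5:58460199-58460228, minus strand): tggcgggacaAGACTTGCTTcccggccacg
SESN1 (chr6:109009018-109009047, minus strand): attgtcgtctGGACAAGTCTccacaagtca
FDXR (chr17:74872986-74873015, minus strand): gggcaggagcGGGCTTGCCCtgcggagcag

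PLK2 and FDXR fell and SESN1 did not pass. A match is a description of these letters and no evidence of binding, and p53 sites elsewhere in these genes were not looked for.

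Genes grouped under feedback on p53 moved by small amounts, with 2 of 6 higher and 1 lower. Counts by role, here and below, cover few genes and stand beside 21.8% of all genes tested higher and 22.1% lower. MDM2 (ENSG00000135679, chromosome 12, 68808176 to 68850686, plus strand), the ubiquitin ligase that degrades p53, was measured at 45.6, 42.0 and 49.6 CPM in controls (replicates 1 to 3, here and below). The exposed replicates were at 38.9, 46.3 and 38.2 CPM. These ranges overlap, and the log2 fold change of -0.15 ± 0.09 (SE) did not pass (adjusted p = 0.18). MDM4, a relative of MDM2 that covers the activation domain of p53, was at 44.6, 40.0 and 42.5 CPM in controls and 55.8, 54.1 and 52.0 CPM in exposed libraries. Every exposed library was above every control, and MDM4 rose 1.27-fold (adjusted p = 9.5e-04). Within a library the log2 ratio of MDM4 to MDM2 counts ran from -0.22 to -0.03 in controls and from 0.22 to 0.52 in exposed cells.

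FBXO22, an F-box protein of a ubiquitin ligase, varied little between replicates, at 55.4 ± 0.653 CPM in controls and 68.7 ± 1.12 CPM in exposed libraries (mean ± SD, n = 3 per group). It rose 1.24-fold (adjusted p = 0.0015), and 16.2% of its exon bases are shared with NRG4 on the opposite strand, which had 487 counts over all libraries against 12952 for FBXO22. The strand setting of the counting is not stated, so reads over shared bases cannot be told apart. TRIAP1, also placed in this group, is known as a small mitochondrial protein that protects from apoptosis. It fell from 41.5, 43.4 and 44.5 CPM to 34.8, 29.8 and 31.8 CPM (log2 fold change -0.42 ± 0.09, adjusted p = 2.5e-04). Cyclin G1, encoded by CCNG1, was at 0.15 and the damage-signal phosphatase PPM1D at -0.24, and neither passed (adjusted p = 0.14 and 0.15). Each passed when 1 library was left out: CCNG1 without exposed replicate 1 (0.22, adjusted p = 0.036, range over the settings 0.036 to 0.38), and PPM1D without the second library of either group (-0.34 for the control and -0.35 for the exposed library, adjusted p = 0.039 and 0.04997, range 0.039 to 0.48).

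Genes of arrest and stress signalling held the largest changes of the 29, with 5 of 9 higher and 2 lower. GADD45A (ENSG00000116717, chromosome 1, 67685061 to 67688338, plus strand) encodes a small acidic protein that binds cell-cycle kinases, the replication clamp and a stress kinase. Control libraries held 7.66, 9.53 and 7.49 CPM, and exposed libraries 37.2, 31.9 and 35.4 CPM. The lowest exposed value was above 3 times the highest control value. Its log2 fold change was 2.08 ± 0.11 (adjusted p = 5.7e-16), a rise that 89 of the 17337 genes tested, GADD45A included, matched or exceeded.

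GADD45G (ENSG00000130222, chromosome 9, 89605013 to 89606555, plus strand), the gamma member of the family, went from 13.3, 14.2 and 10.98 CPM to 35.01, 31.01 and 30.3 CPM. Again all exposed libraries lay above all controls, with a log2 fold change of 1.33 ± 0.11 (adjusted p = 9.8e-12). GADD45B, the beta member, did not follow: it was at 59.9, 68.7 and 50.8 CPM in controls and at 57.8, 40.0 and 56.9 CPM in exposed libraries, with ranges that overlap (-0.21 ± 0.15, adjusted p = 0.28). Exposed replicate 2 was the lowest of the 6 libraries for GADD45B.

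The family's makeup shifted accordingly. Per kilobase of exon, GADD45B made up 67.2% of the family's summed CPM in controls, GADD45G 23.3% and GADD45A 9.55%. In exposed cells the shares were 36.97%, 37.2% and 25.8%. The log2 ratio of GADD45A to GADD45B counts within a library was -2.97 to -2.76 in controls and -0.69 to -0.33 in exposed libraries, and that of GADD45G to GADD45B -2.28 to -2.17 and -0.91 to -0.37.

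**Figure D2:**
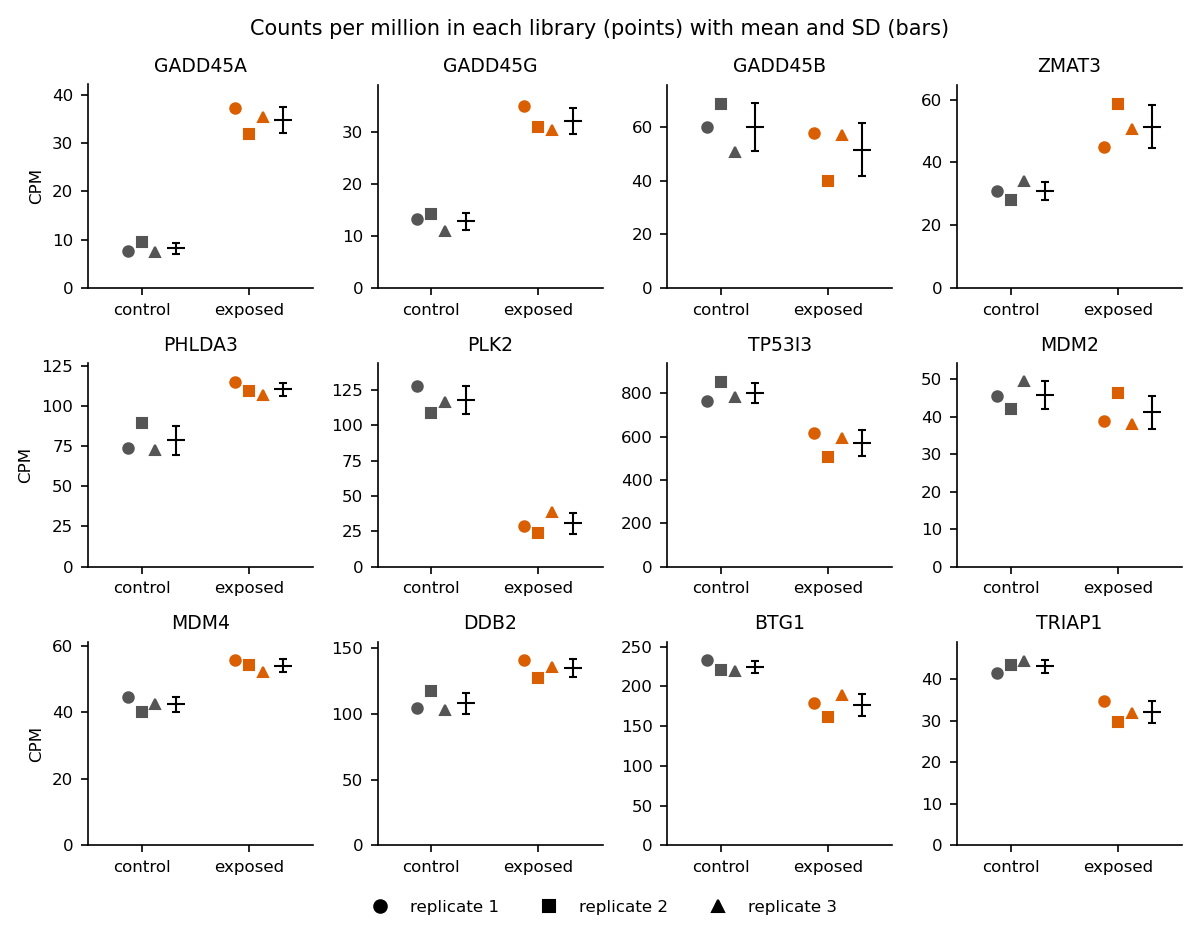
CPM of 12 of the genes in each of the 6 libraries (points, shaped by replicate number) with the mean and SD of each group of 3 (bars), on axes that start at 0. GADD45A, GADD45G, ZMAT3, PHLDA3, MDM4 and DDB2 have all exposed points above the controls, PLK2, TP53I3, BTG1 and TRIAP1 have them below, and GADD45B and MDM2 overlap.

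PLK2 (ENSG00000145632, chromosome 5, 58453982 to 58460260, minus strand), a polo-like kinase of the stress response and of centriole duplication, had the largest fall. Controls had 128, 109 and 116 CPM against 29.003, 24.1 and 38.5 CPM after exposure. The highest exposed value, that of replicate 3, was still below every control. The log2 fold change was -1.94 ± 0.15 (adjusted p = 1.5e-06), a fall that 183 genes tested, PLK2 included, matched or exceeded. In controls PLK2 ranked 8th of the 32 genes by CPM per kilobase (24.7), and in exposed cells 16th (6.41). Its relative PLK3 was scarce, with 28 to 72 counts a library, and did not pass (-0.06 ± 0.31, adjusted p = 0.89).

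ZMAT3, an RNA-binding zinc finger protein, rose from 30.8, 28.0 and 33.9 CPM to 44.99, 58.5 and 50.7 CPM. The groups were apart although the exposed libraries spread more widely, and the log2 fold change was 0.73 ± 0.10 (adjusted p = 2.5e-07). PHLDA3, which competes with the kinase AKT for membrane lipids, rose from 73.9, 89.1 and 72.7 CPM to 115, 109 and 106 CPM (0.49 ± 0.08, adjusted p = 1.1e-05). Its control replicate 2 was the nearest of the controls to the exposed libraries.

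The anti-proliferation factors BTG1 and BTG2, which recruit the enzymes that shorten poly(A) tails, went in opposite directions. BTG1 fell from 234, 220.5 and 219.5 CPM to 179, 161 and 189 CPM (-0.35 ± 0.08, adjusted p = 3.3e-04). BTG2 passed as higher at 51.3 ± 2.32 against 59.2 ± 4.18 CPM (n = 3 per group; 0.21 ± 0.08, adjusted p = 0.043). That call was lost without control replicate 1 or 3 or exposed replicate 1 or 2 (0.17 to 0.20, adjusted p from 0.089 to 0.17, range over the settings 0.016 to 0.17), with a replicate block (0.21, adjusted p = 0.089), and without a filter or with a stricter one (adjusted p = 0.06 and 0.052). The log2 ratio of BTG2 to BTG1 counts was -2.20 to -2.04 in controls and -1.79 to -1.42 in exposed libraries, and that of PLK2 to PLK3 6.05 to 6.76 and 4.11 to 4.77. All 5 ratios of relatives compared in this way, which do not depend on library scaling, were apart between the groups. Every pair held a gene that passed on its own, so this separation restates those calls in part and is no separate support. An exact two-sided permutation test gave p = 0.1 for each ratio, the smallest that 3 libraries against 3 allow, and 0.1 after adjustment over the 5.

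In DNA repair and nucleotide supply 1 of 6 genes rose and 3 fell. The gene that rose was DDB2, whose product recognises ultraviolet lesions, from 104, 117 and 103 CPM to 141, 127 and 136 CPM (0.32 ± 0.08, adjusted p = 0.0011). XPC, the partner that recognises distorted DNA in the same repair pathway, fell from 21.7 ± 0.974 to 18.1 ± 0.72 CPM (n = 3 per group; -0.27 ± 0.10, adjusted p = 0.031). The pair that finds lesions for nucleotide excision repair therefore had values on opposite sides, with the fall of XPC the less secure. It did not pass without control replicate 1 or 3 or exposed replicate 1 or 3 (-0.25 to -0.23, adjusted p from 0.089 to 0.13, range over the settings 0.018 to 0.13) or with a replicate block (-0.27, adjusted p = 0.066), nor without a filter (-0.26, adjusted p = 0.068). XPC also shares 318 exon bases with LSM3 on the opposite strand and 1140 with AC093495.1, which had 168 counts. LSM3 had 15664 counts over all libraries against 4182 for XPC and itself fell (-0.22, adjusted p = 0.022). The part of that overlap in the XPC value was not tested.

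AEN, a nuclease placed in this group that is also known as a promoter of apoptosis, fell from 22.3, 31.3 and 27.4 CPM to 21.7, 21.3 and 20.6 CPM (-0.35 ± 0.11, adjusted p = 0.0088). Control replicate 1 was the nearest of the controls to the exposed libraries, and without control replicate 2 the call was lost (-0.23, adjusted p = 0.079, range over the settings 6.7e-04 to 0.079). ASCC3, a helicase that unwinds alkylated DNA, had overlapping ranges of 22.7 to 27.8 and 17.9 to 23.2 CPM and passed as lower (-0.31 ± 0.11, adjusted p = 0.021). It did not pass without control replicate 3, exposed replicate 1 or exposed replicate 3 (-0.28 to -0.21, adjusted p from 0.072 to 0.15, range 0.0039 to 0.15). The lesion-bypass polymerase POLH, at -0.13, and RRM2B, a ribonucleotide reductase subunit, at 0.08, did not pass (adjusted p = 0.28 and 0.59). The value of RRM2B was -0.027 without control replicate 2 and -0.0054 without exposed replicate 2, so it has no settled sign.

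Among genes of metabolism, redox balance and mitochondria 4 of 5 tested fell, and all 5 fold changes were negative. Of these 4 falls only that of TP53I3 passed in each of the 12 other settings. TP53I3 (ENSG00000115129, chromosome 2, 24077433 to 24085861, minus strand), a quinone oxidoreductase, was the most abundant of the 32 genes per kilobase, at 346 CPM per kilobase in controls against 46.3 for BTG1, the next. It fell from 765, 852 and 781 CPM to 615, 504 and 593 CPM, with no overlap (log2 fold change -0.49 ± 0.08, adjusted p = 1.5e-05). TP53I3 alone held 34.5% of the summed mean CPM of the 32 genes in controls and 27.8% in exposed cells. The sum over all 32 was 2292 to 2362 CPM in controls and 1973 to 2103 CPM in exposed libraries. Without TP53I3, left out as the most abundant, it was 1510 to 1540 CPM in controls and 1469 to 1501 CPM in exposed libraries, still lower after exposure. With PLK2 also left out, as the gene with the largest fall, the sum was 1395 to 1412 CPM in controls. In exposed libraries it was then 1444 to 1462 CPM. Leaving out a gene for its fall, while the genes with the largest rises stay, moves the comparison upward by construction. No direction is therefore read from this last sum.

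FDXR, the mitochondrial reductase that feeds electrons to ferredoxin, was at 109, 124 and 107 CPM in controls and 102, 98.6 and 96.4 CPM in exposed libraries (-0.20 ± 0.08, adjusted p = 0.038). This small difference did not pass with size factors of the DESeq2 type (-0.19, adjusted p = 0.057), with DESeq2 itself (-0.19, adjusted p = 0.052), without a filter (-0.19, adjusted p = 0.077) or with a replicate block (-0.19, adjusted p = 0.09). Nor did it pass without control replicate 2 or any 1 of the exposed replicates (-0.21 to -0.13, adjusted p from 0.051 to 0.19, range over the settings 0.023 to 0.19). TP53INP1, which takes part in autophagy, had overlapping ranges of 48.8 to 59.3 and 36.4 to 49.9 CPM and passed as lower (-0.27 ± 0.10, adjusted p = 0.03). It was lost without control replicate 1, control replicate 3 or exposed replicate 1 (-0.26 to -0.13, adjusted p from 0.093 to 0.29, range 0.0099 to 0.29) and with a replicate block (-0.28, adjusted p = 0.054).

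ACER2, a ceramidase of the Golgi apparatus, fell from 2.84, 2.48 and 2.03 CPM to 1.296, 1.13 and 1.97 CPM (-0.73 ± 0.26, adjusted p = 0.022). With 35 to 106 counts a library it is among the scarcest of the tested genes, and the call was lost without control replicate 1, exposed replicate 1 or exposed replicate 2 (-0.64 to -0.58, adjusted p from 0.068 to 0.11, range 0.007 to 0.11). The sestrins restrain growth signalling through mTORC1. SESN1 averaged 5.32 ± 0.369 CPM in controls and 4.11 ± 0.957 CPM in exposed libraries, a difference that did not pass (-0.37 ± 0.18, adjusted p = 0.093). Exposed replicate 3, at 5.21 CPM, lay within the control range, and without it SESN1 passed as lower (-0.56, adjusted p = 0.022, range over the settings 0.022 to 0.31).

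The 3 genes with too few counts all belong to this group. SESN3 was counted 0, 0 and 6 times in controls and 3, 1 and 0 times in exposed libraries. TIGAR, which lowers the level of a glycolytic regulator, had 2, 0 and 6 counts in controls and 0 in each exposed library. SPATA18, a protein of mitochondrial quality control, had 0 counts in all 6 libraries. With library totals of at least 30970218 counts these genes were at or near the limit of what the libraries could detect, and no difference is claimed for them. TIGAR shares 42.6% of its exon bases with AC008012.1 on the same strand, which had 0 counts in total.

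Of the genes for membrane and cytoskeletal proteins 1 of 3 rose and 1 fell. PERP, a protein of desmosomes also known as an effector of apoptosis, was at 103, 97.8 and 109 CPM in controls and 116, 117 and 117 CPM in exposed libraries, and passed narrowly as higher (0.18 ± 0.07, adjusted p = 0.0497). The call was lost without any 1 of the 6 libraries (0.14 to 0.22, adjusted p from 0.055 to 0.10, range over the settings 0.024 to 0.11) with a replicate block (0.18, adjusted p = 0.11), and without a filter or with a stricter one (adjusted p = 0.084 and 0.059). CYFIP2, a subunit of the complex that drives actin branching, fell from 101 ± 7.19 to 86.7 ± 3.92 CPM (n = 3 per group; -0.21 ± 0.08, adjusted p = 0.025). It did not pass without control replicate 1 or 3 or exposed replicate 2 or 3 (-0.22 to -0.16, adjusted p from 0.069 to 0.16, range 0.0028 to 0.16) or with a replicate block (-0.21, adjusted p = 0.059). EDA2R, a receptor of the tumour necrosis factor family, was at 2.07 to 2.92 CPM in controls and 1.65 to 1.83 CPM in exposed libraries and did not pass (-0.53 ± 0.24, adjusted p = 0.066), but passed without control replicate 2 (-0.66, adjusted p = 0.036, range 0.036 to 0.24).

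**Figure D3:**
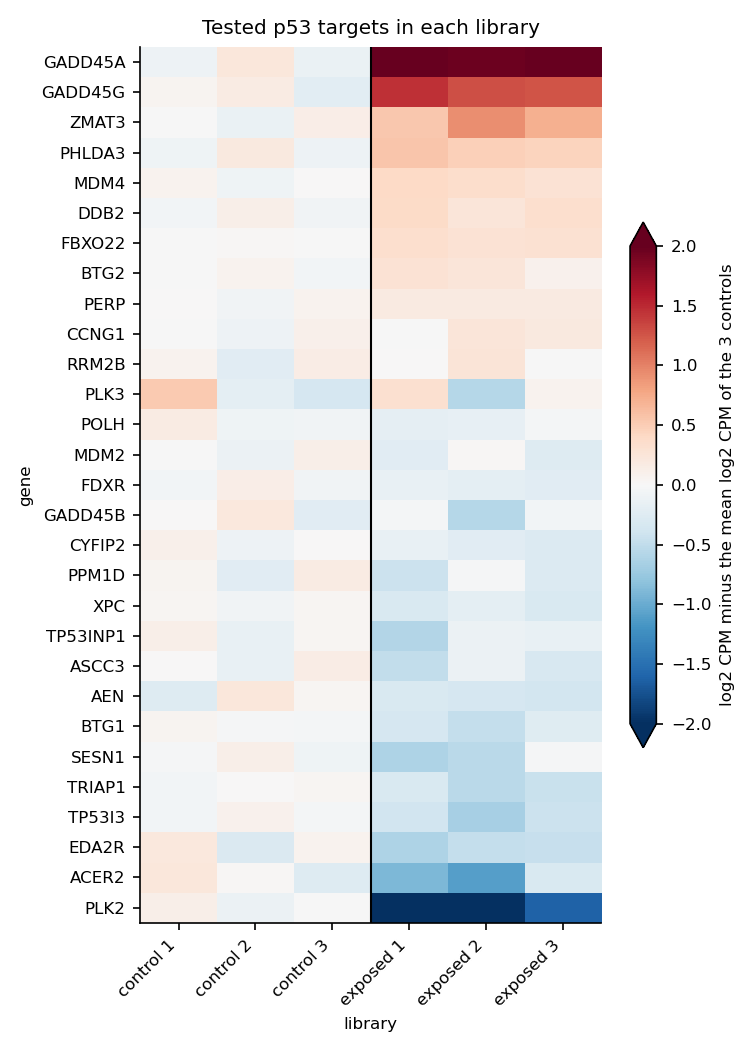
Log2 CPM of the 29 tested genes (rows, ordered by fold change) in each library (columns), as the difference from the mean of the 3 controls; colours end at 2 in either direction. GADD45A and GADD45G are high and PLK2 is low in all 3 exposed libraries, while PLK3 varies more between the controls than between the group means.

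**Figure D4:**
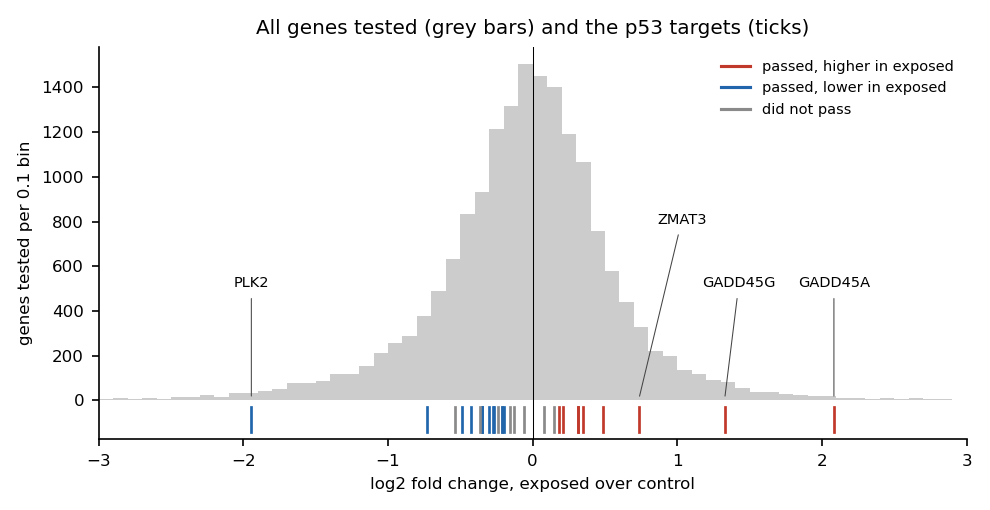
Distribution of log2 fold change over the genes tested (bars, range limited to 3 in either direction) with the 29 p53 targets as ticks coloured by test result. Ticks other than GADD45A, GADD45G and PLK2 lie within 1 of 0, where most genes tested lie.

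The rest of the pathway was read from lists chosen with earlier results of these data known. Their counts stand beside 21.8% of all genes tested that rose and 22.1% that fell. Of 22 relatives and upstream regulators of p53, 21 were tested, 4 rose and 7 fell. The damage kinase gene PRKDC (-0.92 ± 0.09) and the kinase gene HIPK2 (-0.42 ± 0.09) fell, and the acetyltransferase gene KAT5 (0.67 ± 0.09) and the deacetylase gene SIRT1 (0.53 ± 0.11) rose.

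Of 12 p53 targets of cell death 6 rose and 1 fell, with a median log2 fold change of 0.22. BBC3, which encodes the killer protein PUMA, rose from 18.7 ± 2.08 to 51.8 ± 1.501 CPM and the death receptor gene TNFRSF10B from 55.7 ± 3.12 to 92.4 ± 2.39 CPM (n = 3 per group). PMAIP1, which encodes NOXA, was at 0.98 ± 0.18 on the log2 scale, and BID, which links death receptors to mitochondria, fell (-0.49 ± 0.09). Without control replicate 2 or exposed replicate 3 the number that fell was 2.

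Of 37 other p53 targets 34 were tested, 14 rose and 8 fell, with a median of 0.10. CDKN1A, which encodes the kinase inhibitor p21 and is the classical arrest target, was at 90.2, 104 and 88.5 CPM in controls and 110, 99.6 and 105 CPM in exposed libraries. These ranges overlap and CDKN1A did not pass (0.16 ± 0.08, adjusted p = 0.11), but it passed without control replicate 2 (0.24, adjusted p = 0.0078, range 0.0078 to 0.38). The stress cytokine gene GDF15 (4.96 ± 0.13), the lipase gene ABHD4 (1.501 ± 0.09) and the sestrin gene SESN2 (1.20 ± 0.09) rose. KITLG, the ligand of the receptor KIT, fell by 2.25 on the log2 scale, from 110 ± 12.5 to 23.1 ± 0.701 CPM (n = 3 per group).

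Cell-cycle genes that active p53 is known to lower through p21 and the DREAM repressor complex fell in 11 of 18 cases and rose in 1, with a median of -0.28. Over all genes tested 22.1% fell and 21.8% rose, and the median was -0.02. A part of p53 in these falls was not tested. MKI67 (-0.85 ± 0.08), the helicase subunit gene MCM5 (-0.84 ± 0.09), the cyclin gene CCNB1 (-0.59 ± 0.07) and the survivin gene BIRC5 (-0.55 ± 0.07) had the smallest adjusted p of the list. CDC20, an activator of mitotic protein degradation, was the 1 gene that rose (0.29 ± 0.08).

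**Figure D5:**
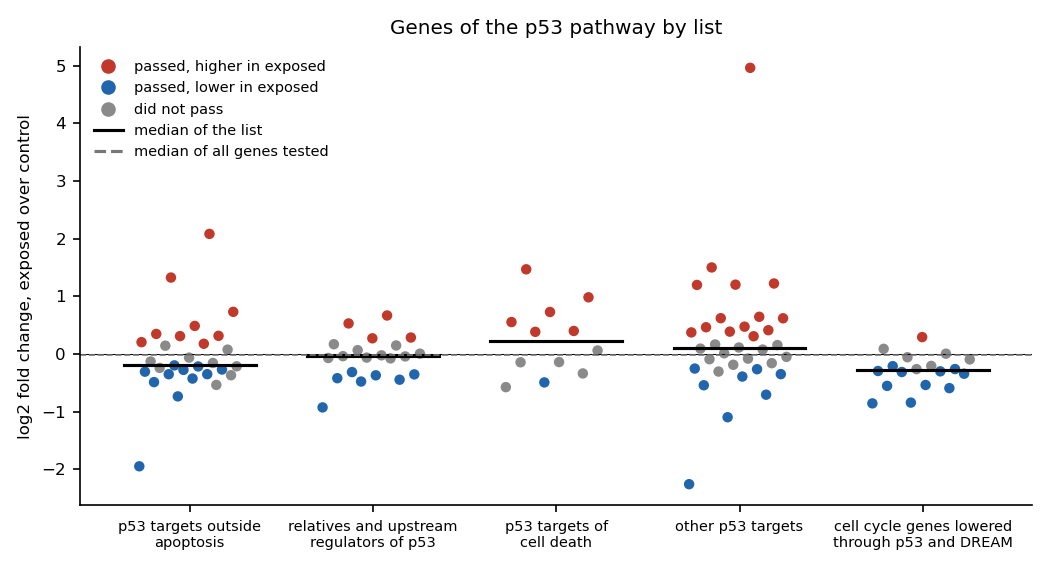
Log2 fold change of every tested gene in the 5 p53 pathway lists (points, coloured by test result) with the median of each list (solid bar) and of all genes tested (dashed line). Each list holds points on both sides of 0, and medians run from -0.28 for the cell-cycle genes to 0.22 for the targets of cell death.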

How the data were processed

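Total RNA of T47D cells was sequenced on an Illumina instrument from NEBNext Ultra libraries, per the labels' protocols. The authors deposited raw read counts per gene, and the submitters' processing notes name GRCh38. Aligner, counter, annotation and strand setting: not given in the sources used here. The gene lengths of the table equal the union of GENCODE 29 exons for all 32 genes.

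Counts of all 58735 genes were fitted in R 4.3.3 with edgeR 4.0.16. A gene was tested if filterByExpr retained it at its defaults (minimum count 10 and total 15), as 17337 did. TMM factors were 0.948 to 1.04. Exposed and control groups, 3 libraries each, were compared by a quasi-likelihood fit with robust dispersions. The SE is the log2 fold change divided by the square root of F. CPM use TMM-scaled library sizes, and errors are SD over 3 libraries. The fit was tested on simulated data. Alternatives were DESeq2 1.42.0, limma-voom 3.58.1, size factors of the DESeq2 type, 2 other filters, a replicate block, fold minimums and leaving out each library. The genes, their roles, the lists and the alternatives were chosen with earlier results of these data known, so no list was tested as a whole. All 32 genes are accounted for, with CDKN1A and up to 4 genes of each other list by smallest adjusted p. CDC20, and genes that overlap a described gene, were named after their values were seen. Promoter sequences are RefSeq's. The result of 1 gene of the pathway is not reported here.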

Additional observations from a re-analysis of the deposited data

How the results depend on the processing

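Calls under 1.5-fold depended most on the setting. Tested against a 1.5-fold change (edgeR glmTreat), 2 of the p53 targets were higher and 1 was lower, against 715 and 783 of all genes; with a 2-fold minimum the counts were 2 and 1, against 634 and 964. Under these 2 settings respectively, upstream regulators gave 0 and 0 higher and 1 and 0 lower, targets of cell death 2 and 1 higher and 0 and 0 lower, other targets 3 and 5 higher and 2 and 2 lower, and cell-cycle genes 0 and 0 higher and 2 and 0 lower. Fewer genes can pass either by construction. The replicate block gave 7 targets higher and 7 lower. The libraries share only a number: deviations of same-numbered libraries correlated at -0.07, -0.07 and 0.01 across genes. No library correlated best with the library of its own number. Leaving out 1 library gave 6 to 11 targets lower, 1 to 2 targets of cell death lower and a median over the p53 targets from -0.22 to -0.14. The stricter filter gave 2 targets of cell death lower. Signs changed for 2 genes that never passed: RRM2B was at -0.027 without control replicate 2 and -0.0054 without exposed replicate 2 (0.15 at the highest), and PLK3 at 0.25 without control replicate 1 and 0.15 without exposed replicate 2 (-0.25 at the lowest). The cause of the other shifts was not tested. Library scaling moved the median of all genes by 0.01. SESN3, TIGAR and SPATA18 had too few counts to test in the main fit, and the reason was not tested.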
